A study of Drosophila melanogaster with 8 samples.

Results

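The Wingless pathway genes described here are wg, fz, fz2, fz3, arr, dsh, Axn, arm, nkd and Notum, 10 of the 18358 genes in the Ensembl BDGP6 annotation once transposable elements are left out. They were taken by name, and every NELF-E peak over their bodies and over each of their alternative starts was read from 4 peak lists. The Negative Elongation Factor (NELF) contains the subunit NELF-E, whose chromatin association was measured by ChIP-seq in Kc167 cells, a female line that the study describes as embryonic hemocytes. The mock group comprised 2 libraries from cells transfected with neither dsRNA nor siRNA, and the AGO2 knockdown group comprised 2 libraries from cells given 100 pmol of siRNA against AGO2 (siAGO2). All were collected 3 days after transfection with the same NELF-E antibody. Depletion was a transient knockdown in a single cell line, and the labels do not say whether replicates were separate cultures, so the spread between them may be technical.

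Wingless is a secreted Wnt ligand that binds a Frizzled receptor together with the co-receptor Arrow. The occupied receptor acts through Dishevelled to inactivate the destruction complex built on Axin, so that Armadillo, the fly β-catenin, accumulates and works with the TCF factor Pangolin on target genes. Several targets feed back on the pathway, among them nkd and Notum, and NELF holds RNA polymerase II shortly downstream of the start of many such signal-dependent genes.

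NELF-E was found at a start of every one of these genes except Notum, in all 4 libraries. That is 9 of 10 members with a peak within 1500 bp of a transcript start, against 41.7% of all 13986 protein-coding genes. The receptor genes, Axn and nkd carried peaks in the upper part of each list, dsh and arm peaks of middle rank, and wg a weak peak whose summit lay before the start. The members have 18 annotated starts. A peak lay within 250 bp of 13 of these in all 4 libraries and of 5 in none, whereas 31.6% of all 19276 protein-coding starts had such a peak in all 4 libraries and 55.3% in none.

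The start sequences of some of the members are shown so that motif matches can be read against the summits. They are the Frizzled genes with a strong peak, the weakly occupied distal start of fz2, the feedback gene nkd, wg with its upstream summits, and Notum without a peak. Each runs 5′ to 3′ on the strand of the gene, read from the Release 6 (dm6) genome, and ends 30 bases into the transcript. The stretch of wg starts 180 bases before the start and the others 70 bases before it. Capitals mark matches to the motifs described after them. The stretches at the 1900173 start of arm, the first start of Axn and the start of dsh held no match and are not shown. The start of arr is not shown either.
fz, chr3L:14274273-14274372, plus strand: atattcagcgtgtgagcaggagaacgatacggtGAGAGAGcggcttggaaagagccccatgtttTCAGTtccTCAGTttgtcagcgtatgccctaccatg
fz2 internal start, chr3L:19170619-19170718, minus strand: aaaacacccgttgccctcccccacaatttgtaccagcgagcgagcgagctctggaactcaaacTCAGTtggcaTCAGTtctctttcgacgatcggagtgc
fz2 distal start, chr3L:19235344-19235443, minus strand: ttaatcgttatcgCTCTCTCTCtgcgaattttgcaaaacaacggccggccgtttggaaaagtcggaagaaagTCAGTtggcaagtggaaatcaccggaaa
fz3, chrX:769956-770055, plus strand: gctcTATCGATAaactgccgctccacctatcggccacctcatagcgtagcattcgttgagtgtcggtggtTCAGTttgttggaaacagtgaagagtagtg
nkd, chr3L:19045420-19045519, minus strand: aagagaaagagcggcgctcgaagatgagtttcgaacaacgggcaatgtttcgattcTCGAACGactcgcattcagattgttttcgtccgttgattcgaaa
wg, chr2L:7306979-7307188, plus strand: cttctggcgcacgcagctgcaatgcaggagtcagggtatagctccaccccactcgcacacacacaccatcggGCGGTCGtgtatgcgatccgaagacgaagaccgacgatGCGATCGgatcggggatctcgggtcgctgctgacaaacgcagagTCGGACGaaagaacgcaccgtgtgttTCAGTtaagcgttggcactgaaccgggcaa
Notum, chr3L:16023410-16023509, plus strand: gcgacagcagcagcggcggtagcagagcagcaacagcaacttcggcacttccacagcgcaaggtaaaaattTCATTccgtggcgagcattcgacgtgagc

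Motifs were searched on both strands from 250 bases before each start to 50 bases into the transcript, except the initiator, which was read on the gene's strand with its A within 5 bases of the start. GAGAG, the repeat bound by GAGA factor, was in 12 of the 18 member starts (66.7%) and in 33.1% of all protein-coding starts. The initiator, TCAGT or TCATT, was in 8 of 18 (44.4%) against 14.3%. The pause button, a motif named for paused promoters and spelled GCGAACG or GCGATCG or GCGGACG or GCGGTCG or TCGAACG or TCGATCG or TCGGACG or TCGGTCG, was in 6 of 18 (33.3%) against 18.3%. The DRE, TATCGATA, was in 3 of 18 (16.7%) against 7.98%, and TATAAA was in 3 of 18 (16.7%) against 42.2%. CTTTGAT or CTTTGAA, the core bound by Pangolin, was in 1 of 18 (5.56%) against 11.5%. Among the 6088 protein-coding starts with a peak within 250 bp in all 4 libraries, GAGAG was in 36.6%, the initiator in 14.4% and the pause button in 20.8%. For the DRE, TATAAA and the Pangolin core these shares were 13.4%, 39.5% and 9.54%. Starts of one gene that lie close together share part of their window, no motif holds another within it, and overlapping GAGAG matches were counted separately. The fz3 starts at 769945 and 770026 held the same DRE matches. At fz, GAGAG matches stood at −37 and −35 and TCAGT at −6 and 3. At the internal start of fz2, TCAGT stood at −7 and 4. At wg, pause button matches stood at −108, −70 and −26. Notum held 8 GAGAG and 2 pause button matches in its wider window and had no peak.

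Before single genes are compared, the depth of the libraries has to be stated, because it differed with treatment. Solving the deposited fold and p-value of each summit for whole fragments gave a genome-wide background of 4.46 and 2.19 fragments in mock 1 and 2 and of 1.18 and 1.48 fragments in knockdown 1 and 2. Both mock libraries were thus deeper, and depth and treatment cannot be told apart. The lists held between 5904 and 7944 peaks. Peaks were therefore described by 3 measures. The percentile ranks a peak's score within its own list. The deposited fold is the summit pileup over the background MACS2 took at that position, which is local where the local input estimate exceeds the genome-wide one. The depth-scaled summit is the number of summit fragments divided by the genome-wide background of the library, and its 95% exact Poisson interval covers counting error only. Its median over the whole list was 15.5 and 18.7 in mock 1 and 2 and 22.0 and 19.6 in knockdown 1 and 2. This median was thus lower the deeper the library, and the measure is not free of depth. With 2 libraries against 2, the exact permutation test has a smallest two-sided p of 0.333, so that no difference between groups could pass a threshold. Of hemocyte marker genes, 6 of 8 (srp, ush, Pvr, Pxn, Hml and lz) had a start peak in all 4 libraries, against 41.7% of protein-coding genes. The marker eater had one in 2 libraries and NimC1 in none. Of markers of other cell types, 3 of 4 (elav, vas and bnl) also had one in all 4 libraries and Mhc in none. These peaks therefore do not identify the cell type.

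**Figure D1:**
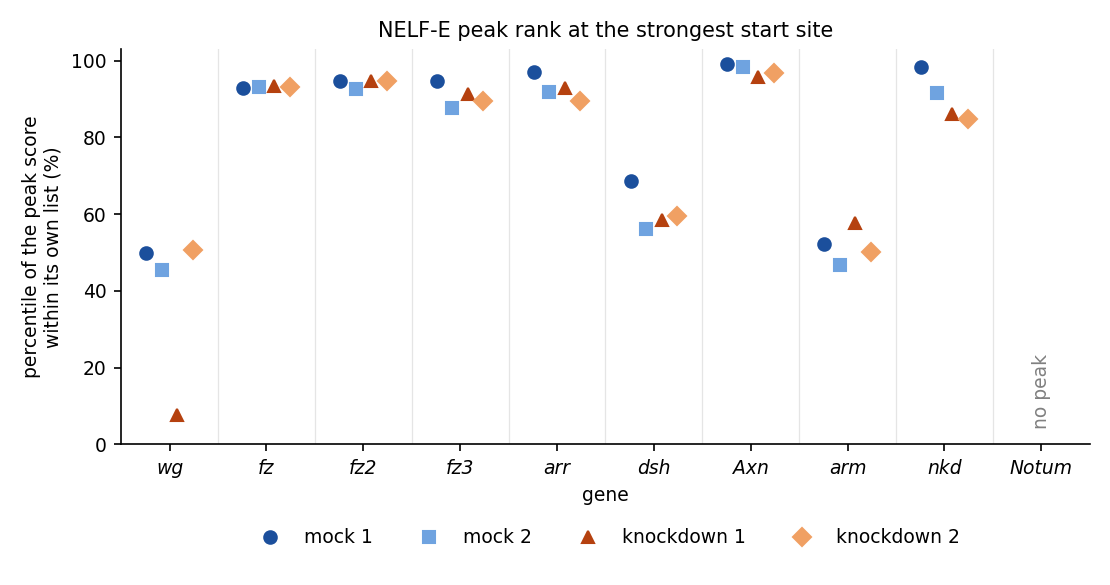
Percentile of the peak score within its own list (y axis, %) at the strongest start site of each Wingless pathway gene (x axis), with 1 point per library. fz, fz2, fz3, arr and Axn lie at 87.7 or above in each library, wg drops to 7.63 in knockdown 1 alone, nkd is lower in both knockdown libraries, and Notum has no peak.

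The ligand gene wg (FBgn0284084; 2L, 7307159 to 7316265, plus strand) has a single start and showed a single peak in each library. Its summits held 57 and 38 fragments in mock 1 and 2 and 11 and 24 fragments in knockdown 1 and 2. They lay upstream, at −114 and −85 bp from the start with mock treatment versus −142 and −168 bp after knockdown, whereas the pause button matches stood at −108, −70 and −26. The peak nevertheless covered the start in all 4 libraries. No start of another gene fell within this site. The percentile was 50.0 and 45.4 with mock treatment versus 7.63 and 50.6 after knockdown, so that knockdown 1 stood alone and the groups overlapped. The mean difference was −18.6 (exact permutation p = 1) and became 2.87 without knockdown 1. Ranked over the sites shared by all libraries it was −2.72, and with lists of equal length −6.46. The depth-scaled summit was 12.8 (9.68 to 16.6), 17.4 (12.3 to 23.8), 9.32 (4.65 to 16.7) and 16.2 (10.4 to 24.1) in mock 1, mock 2, knockdown 1 and knockdown 2. These counting intervals overlap each other, and a difference between libraries at wg was not detectable at this depth.

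Among the receptors, fz (FBgn0001085; 3L, 14274343 to 14368639, plus strand), whose Frizzled protein also acts in planar polarity, had a peak over its single start. The summits lay 28 and 35 bp downstream with mock treatment versus 43 and 37 bp downstream after knockdown, all within an exon. The percentile was 93.0 and 93.1 with mock treatment versus 93.4 and 93.2 after knockdown. The groups did not overlap, yet the difference was 0.246 (exact permutation p = 0.333). Both knockdown libraries lay above both mock libraries in percentile at 6.55% of the 4974 sites shared by all libraries. Ranked over these sites alone, fz was likewise above, as were 22.1% of them. Summits held 238 and 191 fragments with mock treatment versus 125 and 147 after knockdown, or 53.4 (46.8 to 60.6), 87.2 (75.3 to 100.5), 105.9 (88.2 to 126.2) and 99.3 (83.9 to 116.7) in units of the genome-wide background. Mock 1 was thus well below the other libraries, and the interval of mock 2 overlapped those of both knockdown libraries.

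fz2 (FBgn0016797; 3L, 19140975 to 19235373, minus strand), a high-affinity Wingless receptor whose transcription Wingless represses in the wing disc, has 3 annotated starts with unequal NELF-E occupancy. The internal start at 19170648 carried the strong peak, with summits 8, 11, 8 and 8 bp downstream of it in mock 1, mock 2, knockdown 1 and knockdown 2. Its percentile was 94.6 and 92.7 with mock treatment versus 94.7 and 94.7 after knockdown. The distal start at 19235373 had only weak peaks, at percentiles of 21.0 and 9.90 with mock treatment versus 25.5 and 28.9 after knockdown for the stronger peak at the site. In the mock lists the distal site was split into a peak over the start and a stronger peak with its summit 313 and 333 bp downstream. The mock peaks over the distal start itself had percentiles of 2.90 and 2.35. After knockdown the summits lay 17 and 274 bp downstream. Summits of the stronger peaks held 38 and 16 fragments with mock treatment versus 12 and 14 after knockdown. The start at 19146760 had no peak, its nearest summit being that of the internal start, at −23880 to −23877 bp from it. At the internal start the percentiles of the knockdown libraries lay just above mock 1 and above mock 2, an order found at 6.55% of the 4974 shared sites. The distal site also ranked higher after knockdown, in the same order. The peaks ranked there differ in summit position, so this order does not compare the distal start itself. At the internal start the fold was 17.5 and 29.6 with mock treatment versus 56.8 and 50.4 after knockdown, with means of 23.6 ± 8.55 and 53.6 ± 4.50 (SD, n = 2) and a ratio of 2.27 (exact permutation p = 0.333). The depth-scaled summit was 55.4 (48.7 to 62.7) and 73.5 (62.6 to 85.8) with mock treatment versus 104.2 (86.6 to 124.4) and 83.8 (69.7 to 99.9) after knockdown, a ratio of 1.46. The background that entered the fold was 2.93 and 2.04 times the genome-wide background with mock treatment versus 1.004 and 1.001 times after knockdown. Both knockdown values lay below both mock values in this ratio at 40.4% of the shared sites. The fold divides by the background at the position, whereas the depth-scaled summit does not.

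fz3 (FBgn0027343; X, 769945 to 784222, plus strand), a Frizzled family gene induced by Wingless signalling, has starts at 769945, 770026 and 777734. The first pair was covered by a single wide peak of 1071 and 962 bp with mock treatment versus 844 and 866 bp after knockdown. Its summits lay 28, 24, 44 and 51 bp downstream of 770026, so that the peak was placed nearer to the second start. Knockdown 2 had an additional small peak with its summit at −288 bp from the first start, at percentile 11.8. At 777734 there was no peak, and the nearest summits lay at −7684 to −7657 bp from it. The percentile was 94.7 and 87.7 with mock treatment versus 91.3 and 89.6 after knockdown, which overlap. The fold was 24.2 and 18.3 with mock treatment versus 40.9 and 28.8 after knockdown (ratio 1.64, exact permutation p = 0.333), whereas the depth-scaled summit was 47.3 (41.1 to 54.1), 67.6 (57.1 to 79.4), 83.9 (68.2 to 102.1) and 71.6 (58.6 to 86.6). The intervals of both knockdown libraries overlap that of mock 2.

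The co-receptor gene arr (FBgn0000119; 2R, 13453640 to 13483229, minus strand) encodes the LRP5/6 homologue. Its start peak was wide, between 897 and 1035 bp, and the summit lay 106 and 98 bp downstream with mock treatment versus 52 and 54 bp downstream after knockdown. The mock summits fell in an intron and the knockdown summits in an exon. The percentile was 97.2 and 91.7 with mock treatment versus 92.8 and 89.5 after knockdown. The depth-scaled summit was 52.7 (46.2 to 59.9) and 75.3 (64.3 to 87.8) with mock treatment versus 100.8 (83.5 to 120.7) and 83.1 (69.1 to 99.2) after knockdown, and both knockdown intervals overlap that of mock 2. The fold was 24.1 and 24.4 against 39.7 and 21.6, and its difference of 6.38 became −2.70 without knockdown 1. A further peak deep in an intron, 10475 and 10463 bp downstream of the start, was found in the mock libraries alone, at percentiles of 36.1 and 15.7.

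**Figure D2:**
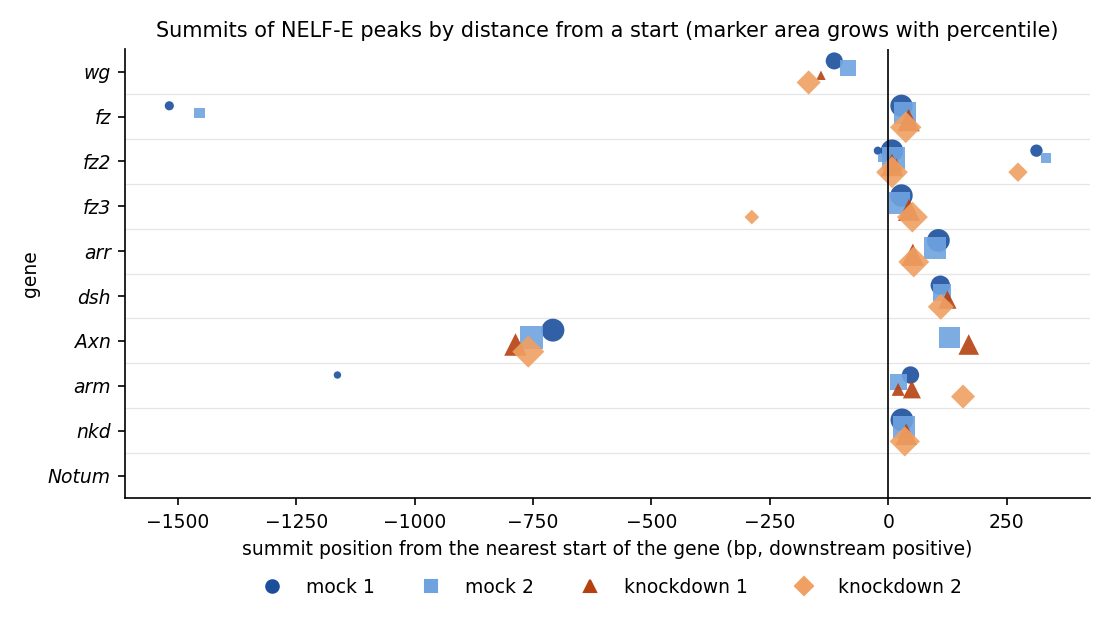
Position of each peak summit from the nearest start of its gene (x axis, bp, downstream positive), by gene (y axis) and library; marker area grows with the percentile of the peak. Summits within 250 bp of a start lie downstream of it in 7 of 9, 8 of 10, 10 of 11 and 7 of 8 cases in mock 1, mock 2, knockdown 1 and knockdown 2; wg is upstream in each library, and the cluster at −787 to −708 bp from Axn lies at the start of Mgat2.

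Of the cytoplasmic components, dsh (FBgn0000499; X, 11355881 to 11358724, plus strand) encodes Dishevelled, which relays the signal from Frizzled to Axin. It had 1 peak in each library, with the summit 110 and 114 bp downstream of the start with mock treatment versus 125 and 111 bp downstream after knockdown. In knockdown 1 the peak began just inside the gene and did not cover the start itself. Summits held 104, 55, 30 and 33 fragments, and the depth-scaled values were 23.3, 25.1, 25.4 and 22.3. The groups overlapped, with a ratio of 0.985, and the counting intervals together spanned 15.3 to 36.3. The percentile was 68.6 and 56.1 with mock treatment versus 58.5 and 59.4 after knockdown. Its difference of −3.37 (exact permutation p = 1) became 2.89 without mock 1.

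Axn (FBgn0026597; 3R, 30022842 to 30035311, plus strand) encodes Axin, the scaffold of the destruction complex. The site at its first start spanned 30021435 to 30023400 and also held the starts of Mgat2 and RpS28a. The strongest summit lay at −708 and −753 bp from the start of Axn with mock treatment versus −787 and −760 bp after knockdown. This is 87, 132, 166 and 139 bp downstream of the start of Mgat2, a glycosyltransferase gene on the opposite strand, and it is this summit that gives the rank of the site (99.1 and 98.3 for mock, 95.8 and 96.8 for knockdown). A separate peak over the start of Axn was called in mock 2 and knockdown 1, with summits 129 and 170 bp downstream, percentiles of 80.4 and 78.1, and 106 and 64 fragments. In mock 1 and knockdown 2 a single peak of 1821 and 1895 bp covered both promoters and left no summit of its own at Axn. When only peaks with their own summit within 250 bp of a start were counted, a choice made after seeing the data, 8 of 10 members had one in all 4 libraries, with Axn among those that did not. The share of all protein-coding genes with such a peak was not computed, so this count has no background to be read against. The second start of Axn, at 30027361, had no peak. For the site as a whole, the member site with the highest median percentile, the most similar percentiles over 4 libraries among 7451 protein-coding genes were those of CG9945 and Hil (largest difference 0.620 each, with identical values) and fng (0.705).

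arm (FBgn0000117; X, 1891401 to 1900646, minus strand) encodes Armadillo, which acts both in signalling and at adherens junctions. It has 4 annotated starts, at 1899524, 1899610, 1900173 and 1900646. One site covered the 3 inner starts, and the outermost start had no peak within 250 bp. The strongest summit was at 1900173 in mock 1 and knockdown 1, 47 and 50 bp downstream of it. In mock 2 it lay 22 bp downstream of 1899610, and in knockdown 2 it was 158 bp downstream of 1900173, in an intron. Knockdown 1 resolved the site into separate peaks, the other with its summit 21 bp downstream of 1899524 at percentile 24.5. The start nearest to the strongest summit thus differed between the mock replicates. The percentile of the site was 52.3 and 46.7 with mock treatment versus 57.8 and 50.0 after knockdown, a difference of 4.44 with overlapping groups (exact permutation p = 0.667). Ranked over the shared sites alone it was 25.0 and 28.1 versus 50.8 and 38.7, where the groups did not overlap and the difference was 18.2 (exact permutation p = 0.333), and with lists of equal length the difference was 16.1. By the rank over shared sites, both knockdown libraries lay above both mock libraries at 22.1% of all shared sites. The summits held only 63, 43, 27 and 25 fragments. The depth-scaled summit had a ratio of 1.18 with overlapping groups (exact permutation p = 0.667). A further peak in mock 1 alone, at percentile 0.566, lay 102 bp downstream of the start of the neighbouring Ldaf1.

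Of the feedback genes, Notum (FBgn0044028; 3L, 16023480 to 16032752, plus strand), which encodes a secreted enzyme that removes the lipid of Wnt ligands, had no peak over its body or start in any library. The nearest summits lay at −11835 to −11793 bp from its start. nkd (FBgn0002945; 3L, 19003741 to 19045449, minus strand), which encodes Naked cuticle, an antagonist that binds Dishevelled, had 1 strong peak per library over its single start. Its summits lay close together, 29 and 33 bp downstream with mock treatment versus 38 and 35 bp downstream after knockdown. A pause button match lay 14 bases before this start and a GAGAG match 86 bases before it.

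nkd was also the only member whose deposited fold was lower in both knockdown than in both mock libraries. The fold was 27.6 and 29.7 with mock treatment versus 16.7 and 18.3 after knockdown, with means of 28.6 ± 1.48 and 17.5 ± 1.14 (SD, n = 2) and a ratio of 0.611 (exact permutation p = 0.333). Such an order was found at 18% of the 4974 sites held by all 4 libraries, and the ratio of nkd was below that of all but 4.44% of them. The percentile was 98.5 and 91.6 in mock against 86.1 and 84.9 in knockdown libraries (difference −9.55, exact permutation p = 0.333). This order of percentiles was common, found at 46% of the shared sites. When ranked over the shared sites alone, nkd was also lower in knockdown, as were 20.5% of them. The summits, however, held 239 and 148 fragments with mock treatment versus 112 and 96 after knockdown. In units of the genome-wide background these were 53.6 (47.0 to 60.8), 67.6 (57.1 to 79.4), 94.9 (78.2 to 114.2) and 64.9 (52.5 to 79.2). The depth-scaled summit was therefore higher on average in knockdown, with a ratio of 1.32 and overlapping groups (exact permutation p = 0.667). The background that entered the fold was 1.71 and 1.84 times the genome-wide background with mock treatment versus 4.89 and 2.91 times after knockdown. Both knockdown values lay above both mock values in this ratio at 9.17% of the shared sites and below them at 40.4%. The lower fold and rank of nkd in knockdown thus stood beside a higher local background at this position, while the depth-scaled summit was not lower. The part of the background in the result was not tested.

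**Figure D3:**
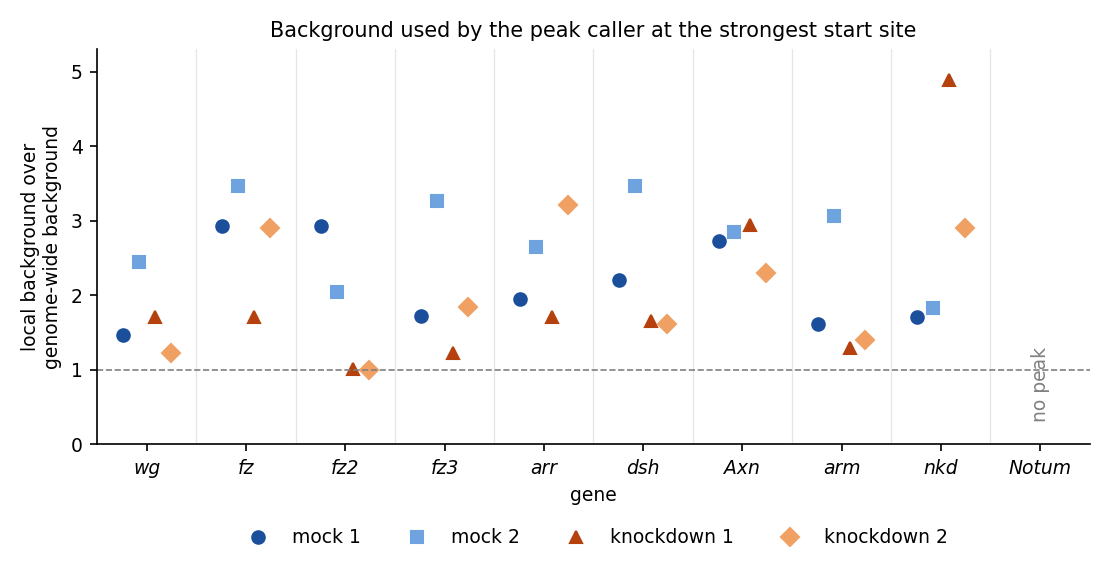
Background that MACS2 used at the strongest start site of each gene, divided by the genome-wide background of the library (y axis; dashed line at 1), with 1 point per library. At nkd both knockdown libraries (4.89 and 2.91) lie above both mock libraries (1.71 and 1.84), and at fz2 both lie near 1 while the mock values are 2.93 and 2.04.

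The groups were then compared over the 9 occupied members together, as a description. By percentile, both knockdown libraries lay above both mock libraries at fz and fz2 and below them at nkd and Axn, that is 2 of 9 in each direction, against 6.55% above and 46% below over all 4974 shared sites. These percentiles are ranks within lists of unequal length. When ranks were taken over the shared sites alone, 3 of 9 members lay above (fz, fz2 and arm) and 2 below (nkd and Axn), against 22.1% and 20.5% of the shared sites. By fold, 6 of 9 members lay above and 1 below, against 30.3% and 18%. By depth-scaled summit, 5 of 9 (fz, fz2, fz3, Axn and arr) lay above and 0 below, against 31.1% and 15.2%. The value counted for Axn in all these comparisons is that of the summit at the start of Mgat2, and without it, a count added after seeing the data, 4 of 8 lay above. The separate peak at the start of Axn itself had depth-scaled summits of 48.4 in mock 2 and 54.2 in knockdown 1, which allow no comparison of the groups. These 5 members are all strong sites. In a comparison added after seeing the data, the ratio of knockdown to mock rose with strength over the whole series. Its median was 0.965 over 1731 shared sites with a median percentile up to 50, 1.03 over 1941 sites from 50 to 80, 1.21 over 647 sites from 80 to 90, and 1.53 over 655 sites above 90 (quartiles 1.39 to 1.73). The ratios of fz (1.46), fz2 (1.46), arr (1.44) and the Axn site with its summit at Mgat2 (1.58) lay between the quartiles of the strongest class, and that of fz3 (1.35) just below them. nkd (1.32) lay just above the upper quartile of 1.31 of its own class, wg (0.848) within the quartiles of the weakest class, and dsh (0.985) and arm (1.18) within and above the upper quartile of 1.14 of theirs. The strong members thus had ratios near those of other sites of their rank, and treatment and depth cannot be told apart here.

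**Figure D4:**
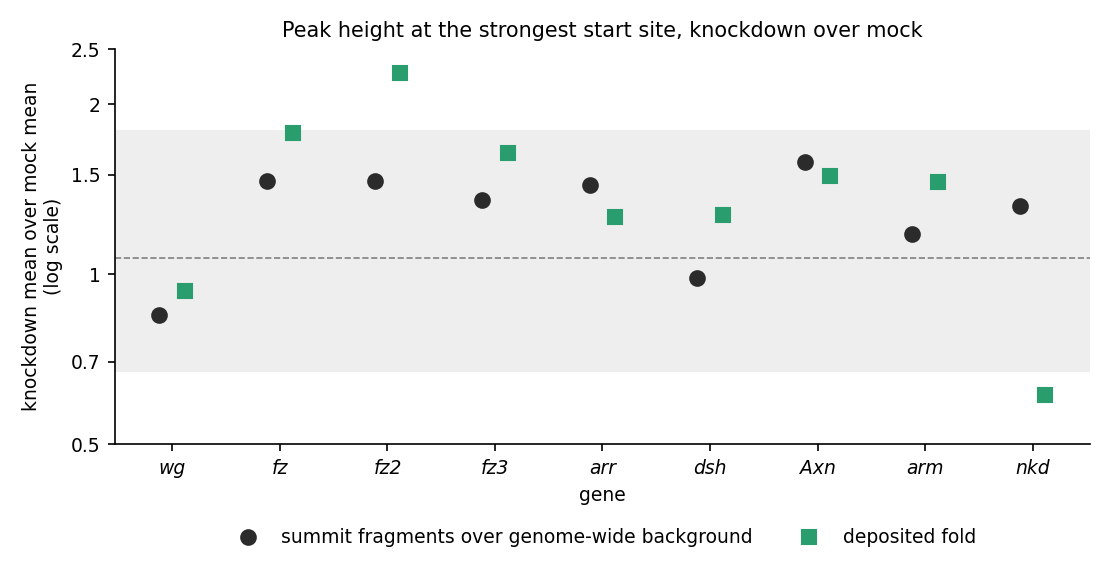
Mean of the knockdown libraries over the mean of the mock libraries (y axis, log scale) at the strongest start site of each occupied gene, for the depth-scaled summit (circles) and the deposited fold (squares); n = 2 libraries per group. The dashed line is the median depth-scaled ratio of all 4974 shared sites (1.07) and the grey band holds the central 95% of them (0.673 to 1.79); nkd is the gene where the measures part most, at 1.32 and 0.611.

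Sites other than the main start peaks were few. The peaks of the 4 lists over the members and their start windows merged into 13 sites, of the 8225 in the series. All 4 libraries held 10 of them (76.9%, against 60.5% of all sites), both mock libraries and neither knockdown library held 2 (15.4%, against 8.21%), and 0 were held by both knockdown libraries alone (against 0.146%). The remaining site was the one at Ldaf1. The mock-only sites were the intronic site of arr (2R, 13472636 to 13472865) and a site upstream of fz (3L, 14272735 to 14273089), with summits at −1518 and −1455 bp from the start and percentiles of 6.62 and 13.1. They held between 14 and 36 fragments in the mock libraries. At the depth of the knockdown libraries this corresponds to between 7.54 and 11.9 fragments, while the lowest summit in those lists held 6 and 7 fragments, and at most 4.82% of their summits held no more than this. Whether they were lost or fell below the depth of the knockdown libraries cannot be told apart. In all, 14 and 14 peaks lay over the members with mock treatment versus 12 and 11 after knockdown, a difference of −2.5 (exact permutation p = 0.333). With each list shortened to its 5904 top-scoring peaks, the numbers were 10, 11, 12 and 11. The distal site of fz2 was then held by the knockdown lists alone, and the intronic site of arr was the one mock-only site left. The shares of all sites in these classes were not computed for the shortened lists, so these sites have no background to be read against.

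For the rest of the pathway, 33 further genes were grouped by role. A start peak was present in all 4 libraries at 23 of these (69.7%, against 41.7% of protein-coding genes), in some libraries at 5 and in none at 5. Among those with one in all 4 libraries, the strongest start site did not cover the gene's own start at por, Ror and Apc. At Ror and Apc it held a start of CG31717 and spg instead. The sites of boca, slmb and pygo also held a start of Vps13, CG5793 and rod, so these peaks may belong to the neighbour. Among Wnt ligands, 1 of 6 was occupied in all 4 libraries. This was Wnt5, a ligand of the Derailed receptors in axon guidance, at percentiles of 98.0 and 97.0 with mock treatment versus 94.1 and 90.8 after knockdown. Wnt6 and Wnt10, which neighbour wg on 2L, and wntD had no peak. Wnt4, on the other side of wg, carried a weak start peak in 3 libraries and lacked one in knockdown 1. This peak ranked at percentile 9.57 for mock 1, 9.90 for mock 2, then 11.1 for knockdown 2. Wnt2 had a weak peak over its start in the mock libraries alone, at percentiles of 21.0 and 30.1. Counts in other roles were 5 of 6 for secretion and extracellular transport, 6 of 7 for other receptors, 5 of 7 for the destruction complex and its regulators, and 6 of 7 for nuclear factors.

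The highest median percentile in each of these roles was found at dlp, otk2, sgg and gro. The glypican gene dlp, whose product binds Wingless at the cell surface, had percentiles of 96.6 and 99.5 with mock treatment versus 99.7 and 98.9 after knockdown. At otk2, which encodes a transmembrane protein of the PTK7 family, they were 97.9 and 90.4 against 79.3 and 79.5. At sgg, the fly GSK3 kinase gene, they were 91.4 and 89.0 against 91.7 and 89.3. At gro, which encodes the Groucho co-repressor that binds Pangolin, they were 89.6 and 89.4 against 87.8 and 89.8. By these ranks the groups overlapped at dlp, sgg and gro, and at otk2 both knockdown libraries were lower. Over the 23 other Wnt genes whose strongest start site was shared by all libraries, 12 had both knockdown percentiles below both mock percentiles and 0 above, next to the 46% and 6.55% of all shared sites. Ranked over the shared sites alone, 5 lay below (21.7%) and 3 above (13.0%), against 20.5% and 22.1% of all shared sites. Those below included otk2, and those above included sgg and gro. By depth-scaled summit, 8 of 23 lay above (34.8%) and 4 below (17.4%), close to the 31.1% and 15.2% of all shared sites. Mock-only sites made up 3 of 57 (5.26%, against 8.21% of all sites) and were found at Wnt2, within the body of Swim (percentiles of 42.1 and 35.6) and upstream of dlp (17.8 and 0.0433).

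**Figure D5:**
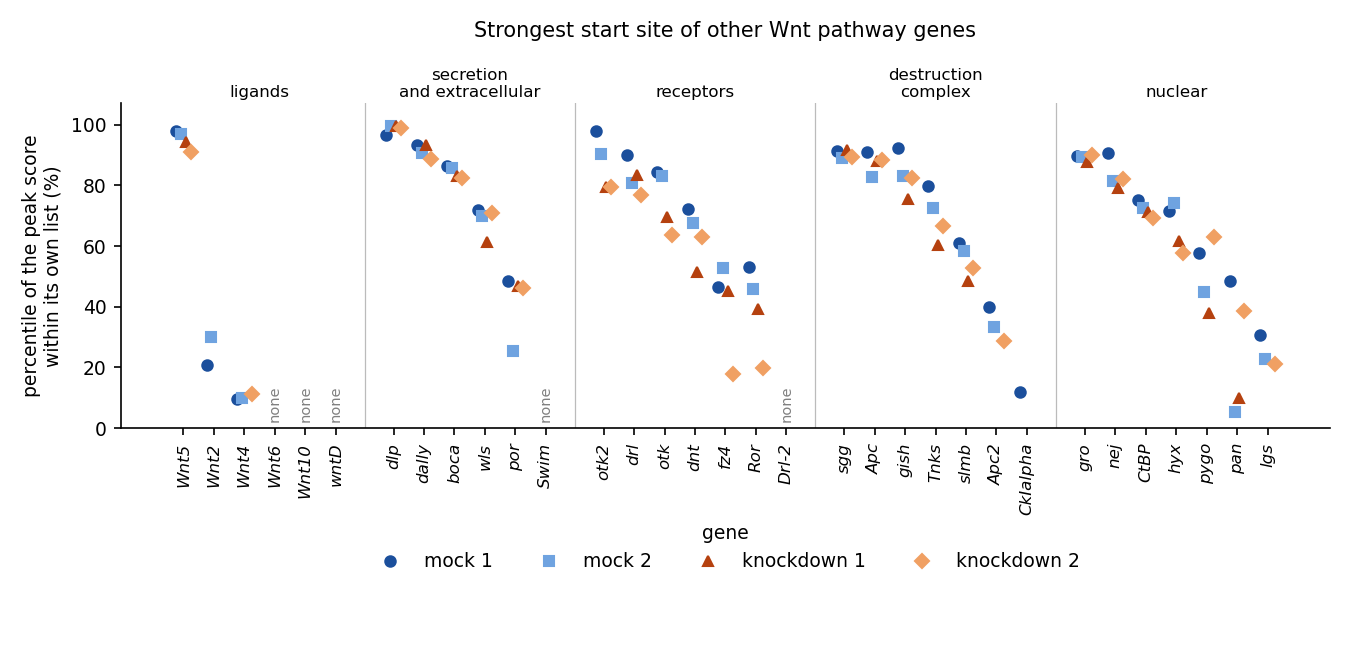
Percentile of the peak score within its own list (y axis, %) at the strongest start site of 33 other Wnt pathway genes (x axis), grouped by role and ordered within a role by their median, with 1 point per library that had a peak. Among ligands, 1 gene of 6 (Wnt5) has a peak within 1500 bp of a start in all 4 libraries, while 22 of the 27 genes in the other roles do. Some of these sites hold starts of other genes.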

How the data were processed

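Reads were adapter-trimmed by the authors with cutadapt and aligned to dm6 with bowtie2. Reads of mapping quality under 20 and PCR duplicates were removed, and MACS2 was run on each replicate against input. The deposited score is 10 times the −log10 q-value of the summit, cut to a whole number, and the deposited fold is the summit pileup over the background, 1 added to each. The authors' −log10 p-value was used with the fold to recover fragments, which came out whole within 0.02 for all 26987 peaks (mock 1 had been scaled by 0.919). As genome-wide background served the lowest value shared by at least 1% of a list's peaks. The 4 input libraries were not analysed here.

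The count model of the study needs read counts and was not run. Peaks were merged where they overlapped by at least 1 bp and annotated with Ensembl BDGP6.54 (dm6 coordinates; 35694 transcripts, 5896 transposable element entries left out). A start site is a merged site within 1500 bp of a start, and the strongest has the highest median percentile. Library labels were compared with two-sided exact permutation tests. All members are named, and of other Wnt genes the ligands, the highest-ranking one per role and those with sites in one group only. Among those with a start peak in all 4 libraries, genes whose strongest start site missed their own start or held another gene's start are also named. The members and lists were chosen with earlier results of these data known. Alternatives were a score of at least 100, lists of equal length, other start windows, overlap of 50%, other ranks, the depth-scaled summit, a replicate block and leaving out each library. Steps ran in Python 3.11.15 with pandas, numpy and scipy and were tested on simulated data.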

Additional observations from a re-analysis of the deposited data

How the results depend on the processing

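Of 156 alternatives, 137 kept direction or, for counts, stayed within 1.5 times, 3 moved a count and 16 reversed a difference. The replicate blocks redo only the p-value, so their differences could not change. Leaving a library out cannot lower the number of members or sites held by all the libraries that remain. The tally thus includes alternatives that could not move. None of the differences between groups could pass a threshold. Mock-only sites over the members numbered 0 with a score of at least 100 and 1 with lists of equal length, where knockdown-only sites numbered 1 and the difference in peaks became 1 in place of −2.5. The shares of all sites in these classes were not computed for these settings or with one library left out. With one library left out, mock-only sites numbered 2 to 3 and the difference in peaks was −3 to −2. In those fits the percentile difference ranged from −40.1 to 2.87 at wg, −4.30 to 2.69 at fz3 and −9.62 to 2.89 at dsh, and the fold difference from −2.91 to 2.01 at wg and −2.70 to 15.5 at arr. The percentile difference at fz3 was −0.807 but 1.08 when ranked over shared sites, 2.60 when ranked by fold and 0.910 with lists of equal length. At dsh it was −3.37 but 5.71, 3.60 and 4.85 in the same order. Ranking over shared sites and equal list length also moved the percentile difference at wg from −18.6 to −2.72 and −6.46, at arm from 4.44 to 18.2 and 16.1, at fz from 0.246 to 2.24 and 1.88, and at fz2 from 1.01 to 2.89 and 2.43, with no change of sign. On the depth-scaled summit the fold difference of −11.1 at nkd became 19.3, and that of 2.19 at dsh became −0.356. The local background differed between the groups at both genes. At dsh it was 2.20 and 3.47 times the genome-wide background with mock treatment versus 1.66 and 1.61 times after knockdown. Both knockdown values lay below both mock values, as at dsh, at 40.4% of the shared sites. The part of the background in either reversal was not tested.

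Same-numbered libraries did not deviate together (correlation −0.0491 over 4974 shared sites by percentile and −0.191 by depth-scaled summit, 2 pairs). With a replicate block the difference in peaks was −2.5 (exact permutation p = 0.5), as with crossed numbers (added after seeing the data), and no call could change. A shallow library sets what a missing peak can show, mainly at wg, arm and the mock-only sites.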
